A study of Mus musculus with 8 samples.

Results

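The Cnr1-high interneurons of the mouse hippocampus are inhibitory nuclei with many transcripts of Cnr1, the gene of the cannabinoid receptor CB1. They were chosen from single-nucleus RNA sequencing counts in which each captured RNA molecule is counted once by its unique molecular identifier (UMI). Nuclei with at most 5% mitochondrial UMIs and 200 to 7500 detected genes were kept, which left 32041 of 33314. A nucleus counted as inhibitory when Gad1 and Gad2, which encode the enzymes that make GABA, had at least 3 UMIs together and more than Slc17a7 and Slc17a6, the vesicular glutamate transporters of excitatory neurons. Cnr1-high interneurons further had at least 8 UMIs of Cnr1, at most 2 of Sst and at most 1 each of Vip, Pvalb and Lamp5, the genes that mark other classes of interneuron. This rule took 155 nuclei of 1678 inhibitory ones, from 13 to 33 per mouse.

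The study removed the gene of γ-secretase activating protein (Gsap) from mice with and without an Alzheimer's disease transgene, and sequenced 1 hippocampal library from each of 8 mice, labelled C57BL/6 and kept on C57BL/6N in the study's methods. There were 3 wild-type mice (WT) and 3 Gsap knockout mice (GKO), all 7 months old, and 1 mouse each of J20;WT and J20;GKO, both 6 months old. The GKO mice carry a constitutive deletion made with a CMV-Cre driver, so the gene is targeted in every tissue and not in interneurons alone. The J20 transgene places a human APP gene that carries 2 familial Alzheimer's mutations, Swedish and Indiana, behind the PDGFB promoter, and only the 2 J20 mice carry it.

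In the hippocampus, CB1 is densest on the axon terminals of interneurons that also make the peptide cholecystokinin (Cck) and come from the caudal ganglionic eminence (CGE), the embryonic source marked by the RNA-editing family gene Adarb2. Active pyramidal cells make endocannabinoids, which travel backwards across the synapse, bind CB1 and lower GABA release for a short time. The parvalbumin and somatostatin interneurons arise instead from the medial ganglionic eminence (MGE), which is marked by the transcription factor Lhx6.

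The libraries held 21020159 to 43310978 UMIs, and the Cnr1-high nuclei had a median of 16217 UMIs (5352 to 58212) and 4973 genes, against 12224 UMIs in the other 1523 inhibitory nuclei. A minimum of 8 UMIs is easier to reach in a deep nucleus, so this difference in depth follows in part from the rule. Summed per mouse, they gave 229129 to 489944 UMIs, and levels below are CPM, the UMIs of a gene per 1000000 UMIs of such a sum. Their mitochondrial share was 0.221 to 0.471% in 7 mice and 0.702% in J20;WT. Every pair of libraries shared 2 to 21 cell barcodes, and 0 barcodes occurred among the Cnr1-high nuclei of more than 1 library. Scrublet called 5 of the 155 nuclei doublets, but it called only 1 nucleus in WT mouse 1 and 0 in GKO mouse 1, where it did not work. Transcripts of Xist and of the Y-linked Eif2s3y put 1 female and 2 male mice in each of WT and GKO, a male in J20;WT and a female in J20;GKO. The female WT and GKO mice were the 2 whose libraries carry another date than the rest of their groups.

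Cnr1 itself had a median of 21 and a maximum of 115 UMIs in these nuclei, and 1214 to 2056 CPM (median 1691) over the 8 mice, against 102 to 164 CPM (median 118) in all other inhibitory nuclei. Vip interneurons had 587 to 1295 CPM (median 758) of Cnr1, which overlapped the chosen nuclei, Lamp5 interneurons 64.9 to 133 CPM (median 107) and Sst interneurons 50.2 to 181 CPM (median 79.2). These values follow from the rule and were not tested. The other marker genes given with the class, Cck and Adarb2, were found in most or all of the nuclei, and the MGE marker Lhx6 was nearly absent. Cck had at least 1 UMI in 84.5% of the 155 nuclei (exact binomial 95% interval 77.8 to 89.8%), Adarb2 in 100% and Lhx6 in 1 nucleus. At the edge of the rule, the 12 nuclei with 8 or 9 UMIs of Cnr1 had 395 CPM of Cck and 6564 CPM of Adarb2, and 29 nuclei that met every other criterion with 6 or 7 UMIs had 242 and 4114 CPM. The 528 nuclei with 0 to 5 UMIs had 104 CPM of Cck and 1059 CPM of Adarb2. In the same order, at least 1 UMI of Cck was found in 58.3%, 55.2% and 47.7% of these nuclei. For Adarb2 the shares were 100%, 79.3% and 51.1%. By this measure, Cck differed little at the edge of the rule.

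Cnr1-high nuclei made up 8.00%, 6.90% and 11.9% of the inhibitory nuclei in the WT mice and 6.57%, 8.75% and 11.8% in the GKO mice. The means were 8.92% ± 2.61 and 9.05% ± 2.64 (SD, n = 3 each), and the 2 groups overlapped throughout (2-sided exact permutation test, p = 1, where 3 against 3 mice allow no p below 0.1). The sign of this difference changed with the settings. The share was 13.6% (exact binomial 95% interval 8.29 to 20.7%) in the J20;WT mouse and 8.84% (5.14 to 14.0%) in the J20;GKO mouse, intervals that overlap and cover counting error only.

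**Figure D1:**
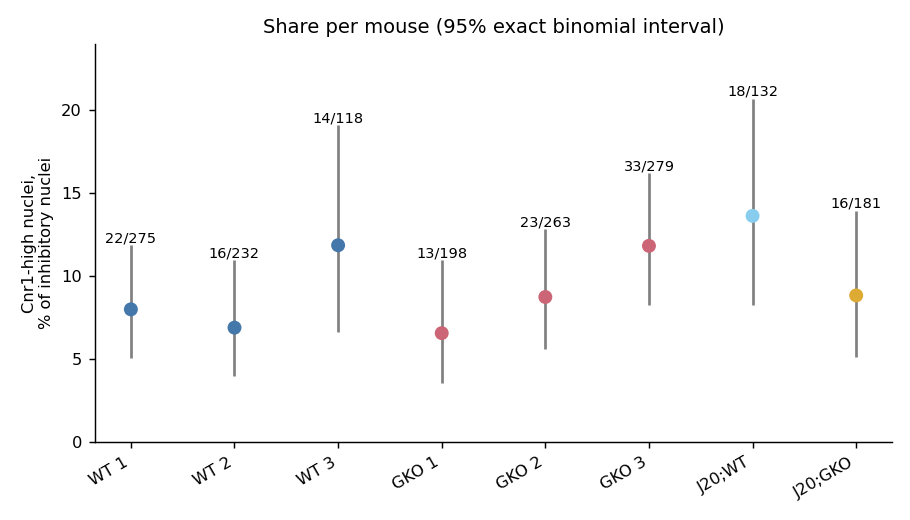
Share of inhibitory nuclei that are Cnr1-high (percent, vertical axis) in each of the 8 mice, grouped by genotype, with exact binomial 95% intervals as bars. The WT mice (6.90 to 11.9%) and the GKO mice (6.57 to 11.8%) cover the same range.

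The first comparison asked what else sets these nuclei apart from all other inhibitory nuclei of the same mice. They were marked by peptide, transporter and receptor genes of CCK interneurons and by transcription factors of CGE interneurons. Of the 5 MGE factors tested, 4 were lower. Of 9746 genes tested, 204 were called higher (2.09%) and 355 lower (3.64%), 5.74% together (edgeR quasi-likelihood test on summed UMIs, mouse as a block, 8 mice). A call needed a log2 fold change above 1 or below -1 along with an adjusted p under 0.05. The p-values take the choice of nuclei as given: the tested genes were read in the nuclei that the rule had picked. The rule also kept out nuclei rich in Sst, Pvalb, Vip or Lamp5, so low levels of the genes of those classes, the MGE factors included, follow in part from it. Of the 17 genes listed as CCK and CGE interneuron genes, 13 could be tested, 8 were higher and 0 lower, with a median log2 fold change of 2.37 beside 0.0048 over all genes.

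Cck had 747 to 2609 CPM (median 1432) in the Cnr1-high nuclei and 90.7 to 252 CPM (median 178) in the other inhibitory nuclei (log2 fold change 3.18 ± 0.15 (SE), adjusted p = 1.14e-11). Every mouse's Cnr1-high nuclei were above every mouse's other nuclei. Adarb2 had 10522 to 16292 CPM (median 13148) against 945 to 2101 CPM (median 1621), again without overlap (log2 fold change 3.15 ± 0.15 (SE), adjusted p = 8.4e-14). Since both genes were named with the class, they are not independent support for it. Cxcl14, a chemokine gene of CGE interneurons, had 116 to 576 CPM (median 377) against 21.5 to 70.9 CPM (median 35.9) (log2 fold change 3.58 ± 0.15 (SE), adjusted p = 2.11e-11). Slc17a8, the vesicular glutamate transporter VGLUT3 that some CCK basket cells carry, had 13.4 to 151 CPM (median 97.4) against 1.19 to 6.60 CPM (median 3.81) (log2 fold change 4.42 ± 0.43 (SE), adjusted p = 2.64e-05), the highest fold change among the genes that the naming rule lists. Neither gene overlapped between the groups. Htr3a, a serotonin-gated channel, reached 42.4 to 129 CPM (median 66.8) against 4.28 to 25.3 CPM (median 9.69) (log2 fold change 2.87 ± 0.19 (SE), adjusted p = 6.01e-11). Igf1, a growth factor gene, had 177 to 519 CPM (median 314) against 39.4 to 89.1 CPM (median 64.0) (log2 fold change 2.43 ± 0.12 (SE), adjusted p = 8.21e-13). Kctd12, an auxiliary subunit of GABA-B receptors, had a log2 fold change of 2.37 ± 0.39 (SE) and Ndnf, a secreted factor of neurogliaform cells, 1.42 ± 0.20 (SE). Igf1, Htr3a and Kctd12 did not overlap between the groups, while Ndnf did, and Ndnf missed the threshold (adjusted p = 0.0582) when the rule asked for 500 CPM of Cnr1 in place of 8 UMIs.

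Not every gene of the list was higher. Npy had 26.1 to 330.2 CPM (median 149.7) against 24.5 to 473 CPM (median 184) and Reln, an extracellular matrix protein, 119.7 to 1238 CPM (median 409) against 287 to 497 CPM (median 360.3), both with wide overlap (adjusted p = 0.45 and 0.503). Synpr, a synaptic vesicle protein, was higher in 8 of 8 mice by a log2 fold change of 0.59 ± 0.10 (SE), below the size asked for. Sncg, Calb2, Krt73 and Crh had too few UMIs to test, and Sncg, which names the matching cortical class in some atlases, had a median of 5.61 CPM in these nuclei.

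Among the 7 listed transcription factors of CGE interneurons, 6 could be tested and 4 were higher, with a median log2 fold change of 1.21. Npas1, a repressor of the bHLH-PAS family, had 167 to 376 CPM (median 299) against 25.7 to 77.0 CPM (median 54.5) (log2 fold change 2.65 ± 0.12 (SE), adjusted p = 6.19e-14), and its relative Npas3 2763 to 3745 CPM (median 3073) against 651 to 996 CPM (median 706) (log2 fold change 2.13 ± 0.12 (SE), adjusted p = 7.87e-12). Neither overlapped. Nr2f2, which encodes COUP-TFII, and the zinc finger gene Zbtb16 had log2 fold changes of 1.32 ± 0.14 (SE) and 1.10 ± 0.10 (SE). Of the 7 MGE factors, 5 could be tested and 4 were lower. Sox6, which MGE interneurons keep after birth, had 3.16 to 22.5 CPM (median 10.8) against 115 to 234 CPM (median 188) (log2 fold change -3.87 ± 0.17 (SE), adjusted p = 6.22e-14). Lhx6 had 0 CPM in the median mouse, 2.04 at most and 1 UMI in all, against 19.7 to 46.8 CPM (median 29.7). Satb1, a chromatin organiser, was lower but not low, at 49.1 to 112 CPM (median 70.8) against 104 to 228 CPM (median 188) (log2 fold change -1.19 ± 0.12 (SE), adjusted p = 3.95e-08), and overlapped. Maf went the other way without being called, at 189.8 to 466 CPM (median 307) against 157 to 270.2 CPM (median 209). All 5 tested MGE factors, Maf included, had an unadjusted p under 0.05 by edgeR.

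Beyond the lists, the rule for named genes picked the strongest differences that had the same direction in all 8 mice. Syt6, a synaptotagmin, had 106 to 410.2 CPM (median 191) against 2.81 to 21.2 CPM (median 13.5) (log2 fold change 4.06 ± 0.37 (SE), adjusted p = 9.61e-05). Cadps2, which primes dense-core vesicles for release, had 714 to 1734 CPM (median 1247) against 49.8 to 121 CPM (median 99.9) (log2 fold change 3.78 ± 0.22 (SE), adjusted p = 1.81e-07). Neither overlapped between the groups. Trp53i11, a p53-induced gene, had 89.2 to 314 CPM (median 156) against 8.21 to 21.8 CPM (median 14.7) (log2 fold change 3.65 ± 0.14 (SE), adjusted p = 5.26e-15) and Rgs12, a regulator of G-protein signalling, 165 to 519 CPM (median 386) against 16.6 to 74.4 CPM (median 28.6) (log2 fold change 3.42 ± 0.21 (SE), adjusted p = 4.74e-07). Col14a1, Megf10 and Yjefn3 completed the higher side. On the lower side Moxd1, Tac1, Lhx6 and Crhbp came first, with 0 to 3 UMIs each in the 155 nuclei. Moxd1 had 0 UMIs in the 155 nuclei, which is at least 32.8-fold lower than in the other inhibitory nuclei when set against a floor of 3 counts over the group. Mctp2, Eya4, Rbp4, Klf5, Myo1e and the antisense gene Sox5os4 followed.

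**Figure D2:**
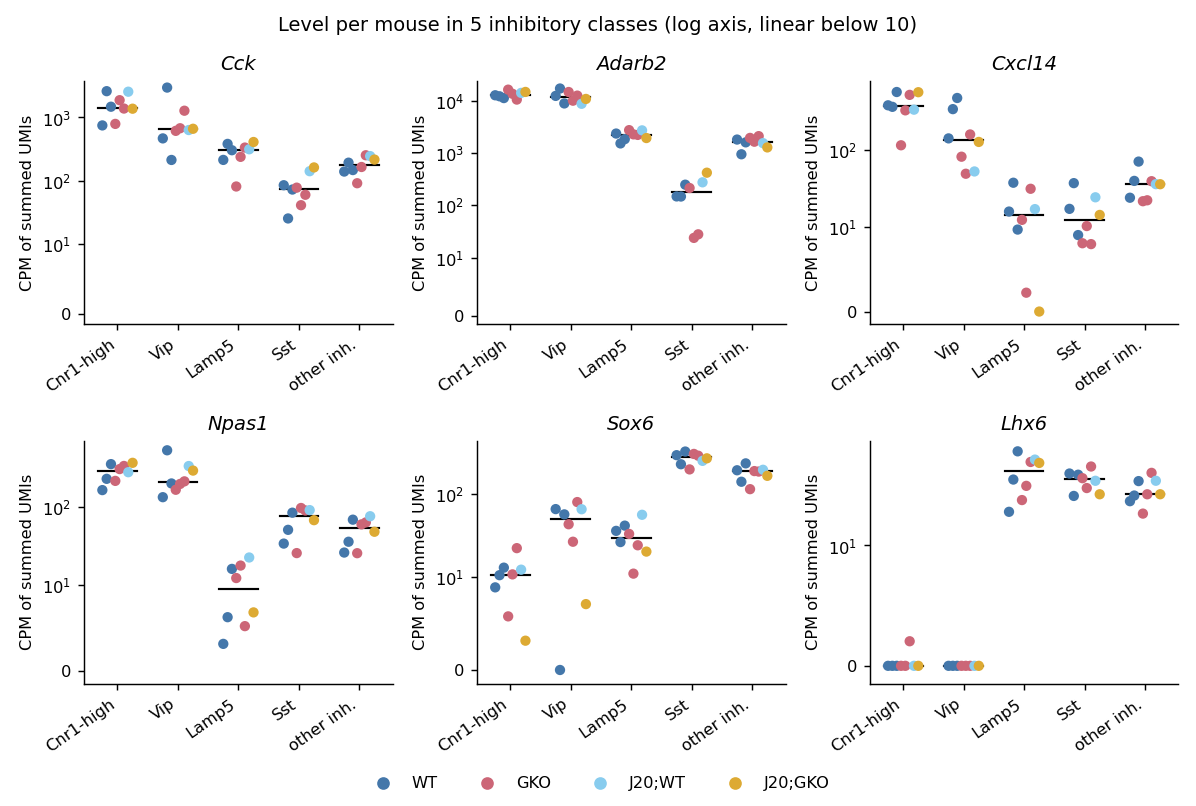
Level of 6 genes (CPM of UMIs summed per mouse, symmetric-log axis that is linear below 10) in Cnr1-high, Vip, Lamp5 and Sst interneurons and in the other inhibitory nuclei, with 1 point per mouse. Cck, Adarb2 and Cxcl14 sit high in the Cnr1-high nuclei and at lower levels in Lamp5 and Sst interneurons, while Adarb2 is as high in Vip interneurons.

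The next question was how the nuclei differ from the single classes around them. The 3 contrasts that follow, with Vip (128 nuclei), Lamp5 (264) and Sst interneurons (404), share the Cnr1-high sums with each other and with the first contrast, so their values are given side by side and no overlap between them was tested. Vip interneurons, the other large CGE class, had a median of 8345 UMIs per nucleus, Lamp5 interneurons 12583 and Sst interneurons 12295.5.

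Against Vip interneurons, 4489 genes were tested, 117 were higher (2.61%) and 97 lower (2.16%), 4.77% in all. Adarb2 was 8739 to 17139 CPM (median 11598) in Vip interneurons (log2 fold change 0.21 ± 0.14 (SE), adjusted p = 0.421), and Npas1 and Htr3a also overlapped (adjusted p = 0.35 each). Cck reached 212 to 2975 CPM (median 647) in Vip interneurons and was lower than in the Cnr1-high nuclei in 7 of 8 mice (log2 fold change 1.01 ± 0.30 (SE), adjusted p = 0.055 by edgeR). That p missed the threshold, and DESeq2 gave an adjusted p of 0.00434. Of the 11 CCK and CGE genes tested, 4 were higher and 2 lower, with a median log2 fold change of 1.01.

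Npy was the clearest of the higher ones, at 26.1 to 330.2 CPM (median 149.7) against 0 to 52.6 CPM (median 1.74) (log2 fold change 4.71 ± 0.34 (SE), adjusted p = 2.56e-09), although its lowest mouse lay within the range of the Vip interneurons. Ndnf, Reln and Cxcl14 were higher by 3.32, 2.14 and 1.39 on the log2 scale, with overlap in each. Reln missed the threshold without the J20 mice (adjusted p = 0.0857), and Cxcl14 did so among nuclei of at least 10000 UMIs (0.244). The contrast of those deeper nuclei kept 6 mice, and the log2 fold change of Cxcl14 in it was 1.65. Tac2, the tachykinin gene of many Vip interneurons, had 0 to 72.8 CPM (median 6.61) against 106 to 728 CPM (median 351) (log2 fold change -4.31 ± 0.58 (SE), adjusted p = 0.00157), with no overlap. Synpr was also lower, at 922 to 1921 CPM (median 1281) in Vip interneurons (log2 fold change -1.22 ± 0.13 (SE), adjusted p = 4.36e-07). Prox1, a transcription factor of CGE interneurons, had 16.5 to 75.5 CPM (median 40.8) against 116 to 299 CPM (median 148) (log2 fold change -1.98 ± 0.25 (SE), adjusted p = 2.1e-05), again without overlap. Satb1, lower than in inhibitory nuclei at large, was higher than in Vip interneurons (log2 fold change 1.17 ± 0.28 (SE), adjusted p = 0.00522), a call that did not hold among nuclei of at least 10000 UMIs. Its log2 fold change was 0.75 there.

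The naming rule picked further genes in this contrast. Ntng1, a netrin-like membrane protein, had 532 to 1512 CPM (median 1186) against 0 to 295 CPM (median 42.7) (log2 fold change 3.82 ± 0.42 (SE), adjusted p = 0.000247). Sgcd, which encodes δ-sarcoglycan, and the collagen genes Col19a1 and Col25a1 were higher by 2.60, 2.80 and 2.46 on the log2 scale, and none of these 4 genes overlapped between the classes. The calls of both collagens were lost among nuclei of at least 10000 UMIs (adjusted p = 0.0817 and 0.145). That contrast kept 6 mice, and their log2 fold changes in it were 2.81 and 2.01. On the other side, Sema5b, a semaphorin, had 0 to 45.4 CPM (median 11.8) against 101 to 421 CPM (median 200.2) (log2 fold change -3.77 ± 0.38 (SE), adjusted p = 2.01e-05). Gpc6, a glypican, and the growth factor receptor gene Egfr were lower, with log2 fold changes of -3.06 and -3.08. In the deeper nuclei Egfr had a log2 fold change of -2.34 and an adjusted p of 0.0541 by edgeR.

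Against Lamp5 interneurons, 6156 genes were tested, 187 were higher (3.04%) and 208 lower (3.38%), 6.42% in all. Of 10 CCK and CGE genes tested, 7 were higher and 0 lower, with a median log2 fold change of 2.35. Cck had 80.5 to 408 CPM (median 308) in Lamp5 interneurons (log2 fold change 2.53 ± 0.17 (SE), adjusted p = 5.81e-09) and Adarb2 1524 to 2738 CPM (median 2246) (log2 fold change 2.64 ± 0.13 (SE), adjusted p = 1.82e-13). Synpr had 6.80 to 110.1 CPM (median 70.5) there, so it was high in the Cnr1-high nuclei, higher still in Vip interneurons and low in Lamp5 interneurons (log2 fold change 3.16 ± 0.33 (SE), adjusted p = 0.000151). Npas1 and Htr3a had log2 fold changes of 4.74 ± 0.19 (SE) and 4.25 ± 0.31 (SE), and Cxcl14 of 4.50 ± 0.36 (SE). Syt6 had 0 to 1.57 CPM (median 0) in Lamp5 interneurons, near 0 in every mouse, and Slc17a8 had 0 UMIs, which makes it at least 101-fold higher in the Cnr1-high nuclei (floor of 3 counts over the group). Cadps2 was higher by 4.69 on the log2 scale. The genes that were lower included Sv2c, a synaptic vesicle protein (log2 fold change -4.46 ± 0.41 (SE), adjusted p = 4.86e-06), Nxph1, a neurexin ligand (log2 fold change -3.58 ± 0.40 (SE), adjusted p = 0.00032), and Tox, a nuclear HMG-box factor (log2 fold change -4.19 ± 0.40 (SE), adjusted p = 3.43e-05). Npy was lower in 8 of 8 mice, by -0.97 on the log2 scale (adjusted p = 4.13e-06), just short of the size asked for, and the classes overlapped.

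Against Sst interneurons, 7146 genes were tested, 240 were higher (3.36%) and 235 lower (3.29%), 6.65% in all. Of 10 CCK and CGE genes tested, 6 were higher and 1 was lower (median 2.89), 5 of 6 CGE factors were higher, and 3 of 4 MGE factors were lower (median -3.29). Adarb2 was at 23.7 to 419.8 CPM (median 181) in Sst interneurons (log2 fold change 6.54 ± 0.54 (SE), adjusted p = 5.23e-05) and Cck at 25.1 to 161 CPM (median 74.6) (log2 fold change 4.35 ± 0.44 (SE), adjusted p = 0.000177). Sox6 was 198 to 324 CPM (median 279) there, without overlap (log2 fold change -4.47 ± 0.18 (SE), adjusted p = 2.16e-14). Rgs12 and Cadps2 had log2 fold changes of 5.32 ± 0.19 (SE) and 4.84 ± 0.18 (SE), and Htr3a of 4.64 ± 0.35 (SE). Npy was the listed gene that was lower (log2 fold change -1.13 ± 0.27 (SE), adjusted p = 0.0155), but its levels overlapped and the call was lost without the J20 mice (adjusted p = 0.119). Moxd1, with 0 UMIs in the Cnr1-high nuclei, was at least 39.6-fold lower than in Sst interneurons.

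The endocannabinoid list covered the other genes of the pathway that CB1 serves. Of its 20 genes, 15 could be tested against the other inhibitory nuclei, 0 were higher and 2 lower (2.09% and 3.64% of all genes), and 7 had an unadjusted p under 0.05 (26.6% of all genes), with a median log2 fold change of 0.05. Dagla, the enzyme that makes the endocannabinoid 2-arachidonoylglycerol, had 6.33 to 46.9 CPM (median 29.6) against 48.6 to 78.5 CPM (median 71.4) (log2 fold change -1.08 ± 0.19 (SE), adjusted p = 0.000122). Plcb1, a phospholipase upstream of it, had 244 to 672 CPM (median 428) against 758 to 1117 CPM (median 927) (log2 fold change -1.03 ± 0.13 (SE), adjusted p = 2.45e-06). Neither overlapped, but both fell short of the fold limit without the J20 mice (-0.92 and -0.88) and after every nucleus was thinned to 5000 UMIs (-0.51 and -0.92). Mgll, which breaks 2-arachidonoylglycerol down and works in axon terminals, had 144 to 455 CPM (median 207) against 147 to 250.3 CPM (median 210.2) (adjusted p = 0.688). Gnao1, the G-protein subunit through which CB1 signals, was higher in 8 of 8 mice without overlap, by 0.88 ± 0.09 (SE), below the fold limit. Against Vip interneurons 0 of 11 and against Lamp5 interneurons 0 of 12 of these genes were called, with 5 and 7 of them at an unadjusted p under 0.05 (23.8% and 29.8% of all genes), and against Sst interneurons 0 of 14 were higher and 2 lower (3.36% and 3.29% of all genes).

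Of 7 GABA-handling genes tested against the other inhibitory nuclei, 0 were called and 3 had an unadjusted p under 0.05, near the shares of all genes (5.74% and 26.6%). Abat, which degrades GABA, was higher in 8 of 8 mice, below the fold limit (log2 fold change 0.44 ± 0.10 (SE), adjusted p = 0.00143). Of 14 GABA receptor genes, 0 were higher and 4 lower (3.64% of all genes were lower), with a median of -0.37. Gabrg3 had 244 to 688 CPM (median 394) against 1456 to 1834 CPM (median 1707) (log2 fold change -1.88 ± 0.15 (SE), adjusted p = 8.28e-09), and 2493 to 3753 CPM (median 2850.5) in Lamp5 interneurons (log2 fold change -2.73 ± 0.16 (SE), adjusted p = 8.49e-12). Gabrd, the δ subunit of tonic GABA-A receptors, had 0 to 33.5 CPM (median 10.9) against 36.1 to 104 CPM (median 64.0) (log2 fold change -2.22 ± 0.46 (SE), adjusted p = 0.00686) and Gabbr2, a GABA-B receptor subunit, 99.1 to 292 CPM (median 165) against 376 to 464 CPM (median 409) (log2 fold change -1.17 ± 0.14 (SE), adjusted p = 1.46e-06). None of these 3 overlapped. Gabra2 went the other way without passing the fold limit (log2 fold change 0.62 ± 0.13 (SE), adjusted p = 0.00098). Against Vip, Lamp5 and Sst interneurons, 2 of 11, 5 of 13 and 1 of 13 of the GABA receptor genes were lower, beside 2.16%, 3.38% and 3.29% of all genes, and 0 were higher.

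Of 16 glutamate receptor genes tested, 0 were higher and 8 lower than in the other inhibitory nuclei (2.09% and 3.64% of all genes), with a median log2 fold change of -1.03. Among AMPA receptor subunits, Gria1 had 826 to 1289.7 CPM (median 1027) against 2217 to 3091 CPM (median 2560.3) (log2 fold change -1.26 ± 0.10 (SE), adjusted p = 2.25e-09) and Gria3 122 to 301 CPM (median 157) against 515 to 725 CPM (median 574) (log2 fold change -1.66 ± 0.14 (SE), adjusted p = 2.57e-08). The kainate receptor gene Grik3 had 9.49 to 40.2 CPM (median 31.2) against 112 to 165 CPM (median 129.5) (log2 fold change -2.11 ± 0.17 (SE), adjusted p = 4.19e-09). All 3 were lower in 8 of 8 mice without overlap. The metabotropic receptor genes Grm5, Grm7 and Grm8 were lower, with log2 fold changes of -1.30, -1.86 and -2.05. The NMDA receptor subunits Grin1 and Grin2b were close to the other inhibitory nuclei (-0.14 ± 0.09 and 0.16 ± 0.10, SE). Against Vip interneurons 2 of 15 were lower (2.16% of all genes) and 0 higher. They were Grm7 (log2 fold change -2.70 ± 0.23 (SE), adjusted p = 6.04e-07) and Grm8 (log2 fold change -3.43 ± 0.25 (SE), adjusted p = 3.33e-07). Both are presynaptic receptors that were high in the Vip class, at 344 to 1354 CPM (median 663) for Grm8. Against Sst interneurons 8 of 16 were lower (3.29% of all genes), among them Gria1 (-1.45 ± 0.12 (SE)) and Grin3a, an NMDA receptor subunit (-2.26 ± 0.16 (SE)). Against Lamp5 interneurons 4 of 16 were lower (3.38% of all genes), with Grin2a at 2123 to 3249 CPM (median 2655) in that class (log2 fold change -2.09 ± 0.13 (SE), adjusted p = 6.1e-12).

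Of 17 receptor genes for modulators, 4 were higher and 1 lower, beside 2.09% and 3.64% of all genes. Chrm3, the muscarinic M3 receptor, had 702 to 1743 CPM (median 984) against 328 to 643 CPM (median 419.6) (log2 fold change 1.34 ± 0.13 (SE), adjusted p = 4.19e-08). Npy1r, a receptor for neuropeptide Y, had 22.3 to 78.0 CPM (median 38.8) against 8.21 to 13.2 CPM (median 11.1) (log2 fold change 1.99 ± 0.23 (SE), adjusted p = 5.22e-07) and Esr1, the oestrogen receptor α, 37.9 to 104 CPM (median 55.9) against 14.3 to 28.3 CPM (median 17.9) (log2 fold change 1.81 ± 0.17 (SE), adjusted p = 1.67e-08). None of the 3 overlapped. Htr2c, a serotonin receptor, had 107 to 693 CPM (median 313) against 73.0 to 203 CPM (median 107) (log2 fold change 1.52 ± 0.31 (SE), adjusted p = 0.0106), overlapped, and missed the threshold without nuclei that held 3 or more UMIs of other cell types (adjusted p = 0.0762). Oprd1, the δ-opioid receptor, was lower (log2 fold change -1.10 ± 0.21 (SE), adjusted p = 0.00065), below the fold limit without the J20 mice (-0.88). Against Vip interneurons, the adrenergic receptor gene Adra1b was lower, at 25.3 to 46.9 CPM (median 28.6) against 91.7 to 261 CPM (median 175) (log2 fold change -2.36 ± 0.18 (SE), adjusted p = 3.29e-09), and Esr1 was higher with overlap (log2 fold change 1.07 ± 0.35 (SE), adjusted p = 0.0476), a call lost without the J20 mice (0.185). Erbb4, the neuregulin receptor of interneurons, was higher than in Sst interneurons in 7 of 8 mice (log2 fold change 1.16 ± 0.34 (SE), adjusted p = 0.0479), with overlap and an adjusted p of 0.141 without the J20 mice.

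In the machinery of transmitter release, 3 of 26 genes were higher and 6 lower than in the other inhibitory nuclei, beside 2.09% and 3.64% of all genes, and 4 of the 6 were calcium channel genes. Cacna1a, the P/Q-type channel, had 215 to 428 CPM (median 314) against 820.2 to 1059 CPM (median 956) (log2 fold change -1.49 ± 0.12 (SE), adjusted p = 9.47e-10). Cacna1b, the N-type channel on which release from CCK basket cells depends, had 308 to 544 CPM (median 416) against 227 to 266 CPM (median 246) (log2 fold change 0.87 ± 0.10 (SE), adjusted p = 6.74e-07), higher in 8 of 8 mice without overlap but under the fold limit. Both differences held in every mouse. Cacna1e, the R-type channel, was lower, with overlap (log2 fold change -1.68 ± 0.22 (SE), adjusted p = 0.000136). Cacna2d1, Cacna2d2, Syt2 and Syt7 were the other genes called lower. Syt2, a calcium sensor of fast-releasing terminals, had 0 to 11.2 CPM (median 3.81) against 15.8 to 51.1 CPM (median 31.1). Pclo, a scaffold of the active zone, had 604 to 1914 CPM (median 1089) against 394 to 495 CPM (median 440.4) (log2 fold change 1.43 ± 0.15 (SE), adjusted p = 2.17e-06), and 1.29, 1.62 and 1.03 on the log2 scale against Vip, Lamp5 and Sst interneurons, where it overlapped the first and the last. The call against Sst interneurons was at the fold limit and was lost without the J20 mice (0.98). Cplx2, a complexin, had 136 to 237 CPM (median 161) against 53.4 to 65.2 CPM (median 58.1) (log2 fold change 1.63 ± 0.11 (SE), adjusted p = 6.85e-11), and 22.8 to 55.5 CPM (median 38.2) in Lamp5 interneurons (log2 fold change 2.33 ± 0.13 (SE), adjusted p = 2.66e-12). Nrxn3, a neurexin, was higher by 1.11 ± 0.11 (SE) on the log2 scale. Against Lamp5 interneurons Cacna2d1, an auxiliary calcium channel subunit, had 81.6 to 279 CPM (median 158) against 1309 to 2399 CPM (median 1752) (log2 fold change -3.38 ± 0.27 (SE), adjusted p = 4.22e-06).

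Among 19 voltage-gated channel genes, 2 were higher and 0 lower, beside 2.09% and 3.64% of all genes. A count of 2 is too small to read as a trait of the list. Kcnq5, a potassium channel of the M-current, had 1633 to 2807 CPM (median 2347) against 406 to 823 CPM (median 598) (log2 fold change 2.04 ± 0.13 (SE), adjusted p = 3.37e-11), with 164 to 719 CPM (median 319.8) in Sst interneurons (log2 fold change 2.93 ± 0.20 (SE), adjusted p = 2.34e-08) and 618 to 1191 CPM (median 844) in Lamp5 interneurons (log2 fold change 1.45 ± 0.14 (SE), adjusted p = 3.91e-08). Kcnip1, a potassium channel partner, had 749.8 to 1274 CPM (median 879) against 299 to 468 CPM (median 382) (log2 fold change 1.41 ± 0.11 (SE), adjusted p = 1.12e-09). Its relative Kcnip4 was lower than in Vip interneurons, at 664 to 2511 CPM (median 1834) against 4075 to 9259.5 CPM (median 5335) (log2 fold change -1.64 ± 0.21 (SE), adjusted p = 4.82e-05). Of the 10 genes on which the study centred, Homer2, a postsynaptic scaffold, was the 1 that was called: it had 175 to 402 CPM (median 226) against 98.5 to 168 CPM (median 111) (log2 fold change 1.16 ± 0.09 (SE), adjusted p = 1.91e-09) and 37.4 to 87.8 CPM (median 60.9) in Sst interneurons (log2 fold change 2.08 ± 0.12 (SE), adjusted p = 6.46e-12). That list was chosen by the study on these samples and was not drawn up for interneuron classes.

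**Figure D3:**
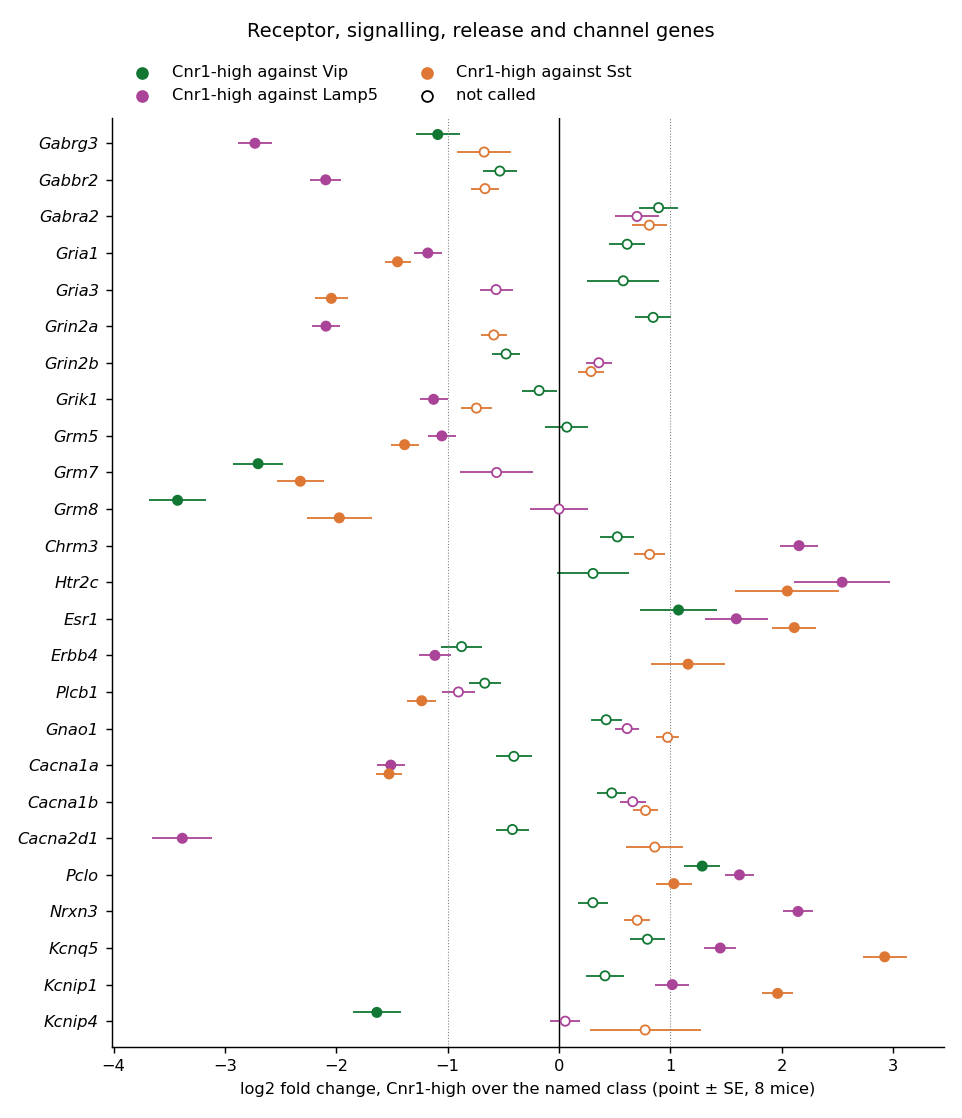
Log2 fold change (horizontal axis, point ± SE from edgeR) of listed receptor, release and channel genes in Cnr1-high nuclei against Vip, Lamp5 and Sst interneurons (colours), over 8 mice, with filled points for genes past both limits. Grm8 lies far to the left against Vip interneurons (-3.43) and Cacna2d1 against Lamp5 interneurons (-3.38), while Kcnq5 lies to the right against Sst interneurons (2.93).

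Genes of other cell types were counted in these nuclei too. The 6 excitatory neuron genes summed to 282 to 512 CPM (median 443) over the mice, against 429 to 769 CPM in the other inhibitory nuclei, and Camk2a gave most of it. The 5 oligodendrocyte genes summed to 46.2 to 250 CPM against 157 to 337 CPM, and 2 of the 5 were called lower, Mag among them. The 5 astrocyte genes summed to 7.09 to 122 CPM, the 5 microglial genes to 63.7 to 272, the 4 genes of oligodendrocyte precursors to 0 to 11.2 and the 5 vascular genes to 0 to 33.0. None of these lists had a gene called higher, and 3 of the vascular genes had 3 or fewer UMIs in all. Of the Cajal-Retzius and choroid plexus genes (0 to 208 CPM), Ttr gave most, and Folr1 and Ebf3 had 2 UMIs each in all 8 mice together. Their part in the results was not tested, but the class contrasts were also run without nuclei that held 3 or more UMIs of other cell types. This left out 33 Cnr1-high nuclei and also such nuclei of the compared classes, and 75.7 to 77.7% of the calls of each contrast were kept.

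The Cnr1-high nuclei were not uniform. At least 1 UMI of Igf1 was found in 86.5% of the 155, of Npas1 in 80.0%, of Cxcl14 in 67.1%, of Reln in 62.6%, of Htr3a in 54.2%, of Npy in 39.4%, of Calb1 in 36.8%, of Ndnf in 34.2% and of Slc17a8 in 17.4%. Each nucleus was thinned to 5000 UMIs to set these shares beside those of other cells. The 9536 excitatory nuclei (median 12368 UMIs before thinning) and 398 Sst interneurons were thinned alike. Those cells may transcribe a gene themselves, so their shares do not measure free RNA alone. Cxcl14 was then found in 55.5% of Cnr1-high, 4.00% of excitatory and 6.78% of Sst nuclei, and Slc17a8 in 11.0%, 0.168% and 3.52%. Ndnf was found in 23.9%, 0.933% and 3.02%, Htr3a in 27.7%, 0.168% and 1.01%, and Igf1 in 67.1%, 0.43% and 21.1%. These shares stood far above both comparison types. Calb1, the calcium buffer calbindin, did not (18.7%, 21.0% and 19.8%), and Cck, which excitatory neurons also transcribe, was found in 75.5%, 66.6% and 19.6%. Reln and Npy exceeded excitatory nuclei but not Sst interneurons (49.7%, 4.16% and 60.8% for Reln, 24.5%, 4.39% and 36.9% for Npy). Slc17a8 was the most concentrated of these genes, with 89.8% of its UMIs in the 16 nuclei that had the most of it, and its share of nuclei ran from 6.06 to 31.2% between mice.

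Splitting the nuclei by 1 gene at a time, those with at least 2 UMIs against those with 0, showed genes that went together and genes that avoided each other. These splits are a description: nuclei of 1 mouse are not replicates, deeper nuclei reach 2 UMIs more easily, and no test was run. A direction is given over the mice that had at least 2 nuclei on both sides. The 22 nuclei with Slc17a8 had 91.7 CPM of Reln against 645 CPM in the 128 without, and 13.4 CPM of Ndnf against 161 CPM, both lower in 7 of 7 mice. They also had more Chrm3 (2179 CPM against 761 CPM) and more Mgll (477 CPM against 164 CPM), both higher in 7 of 7, and less Synpr (296 CPM against 635 CPM, lower in 7 of 7). All 22 also had at least 2 UMIs of Cck.

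The 45 nuclei with Ndnf made a contrasting picture. They had 418 CPM of Cck against 2088 CPM in the 102 without it, lower in 8 of 8 mice, and 1065 CPM of Reln against 288 CPM, higher in 8 of 8. Of these 45, 44 also had at least 2 UMIs of Reln, while 3 had Slc17a8 and 3 had Calb1. Grik1, a kainate receptor, was at 1629.7 CPM in the nuclei with Ndnf and 424 CPM in those without, higher in 8 of 8. Cck gave the mirror image: the 119 nuclei with at least 2 UMIs of Cck had 81.3 CPM of Ndnf and 417 CPM of Grik1, against 299 CPM and 2678 CPM in the 24 with 0, each lower in 6 of 6 mice. The nuclei with Cck had 70.9 CPM of Calb1 against 2.72 CPM, and all 27 Calb1 nuclei and all 22 Slc17a8 nuclei were among them. Nuclei with and without Cck had median depths of 17488 and 14562.5 UMIs.

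Cxcl14 and Reln tended to occur in the same nuclei, 74 of the 95 with Cxcl14 and of the 90 with Reln. Nuclei with Reln had 594 CPM of Cxcl14 against 136 CPM, higher in 8 of 8 mice, and 1.89 CPM of the keratin gene Krt73 against 61.8 CPM, lower in 8 of 8. Nuclei with Cxcl14 had more Npy (225 CPM against 77.0 CPM) and Satb1 (104 CPM against 26.8 CPM) and less Chrm3 (806 CPM against 1485 CPM), each in 7 of 7 mice. The 27 nuclei with Calb1 had less Ndnf (16.5 CPM against 188 CPM) and Ntng1 (306 CPM against 1635 CPM) and more Cadps2 (2275 CPM against 739 CPM), each in 8 of 8 mice, and 1 of the 27 had Slc17a8. The 44 nuclei with Npy had more Kctd12 (119 CPM against 12.5 CPM) and Mgll (345 CPM against 177 CPM), each in 8 of 8. Ntng1 and Cadps2 entered the splits after their values had been seen.

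**Figure D4:**
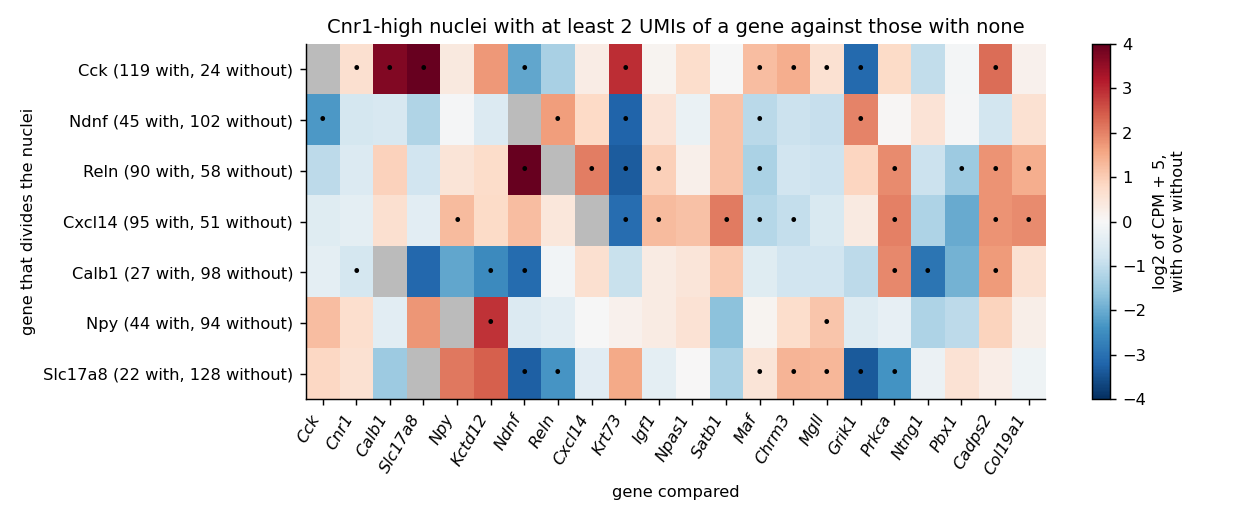
Log2 ratio (colour, scale ends at -4 and 4) of the level of each gene (horizontal axis) between Cnr1-high nuclei with at least 2 UMIs and those with 0 UMIs of the gene that splits them (vertical axis), from mouse means of CPM plus 5, with a dot where every mouse counted had the same direction. The Ndnf and Cck rows run in opposite directions for Grik1, and Ndnf is low in nuclei with Cck, as Cck is in nuclei with Ndnf.

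The study then asked what the loss of Gsap changes, and the targeted gene was read first. Gsap had 17.9, 17.7 and 13.1 CPM in the Cnr1-high nuclei of the WT mice and 17.4, 32.6 and 28.6 CPM in the libraries labelled GKO, from 3 to 14 UMIs per mouse, which is too few to test. The GKO values were not lower. A count at the 3′ end of the transcript need not be lost when internal exons are deleted, so it does not check the label, and every direction below rests on the labels. The study itself reports that the targeted exons were excised and Gsap mRNA was reduced, by genomic PCR and quantitative RT-PCR. It does not state whether those were the mice sequenced here. The J20;WT mouse had 8.26 CPM (2 UMIs) and the J20;GKO mouse 28.5 CPM (9 UMIs).

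No gene passed the threshold between the mice labelled GKO and the WT mice. Of 6248 genes tested, 0 were called (0%) by edgeR, where a call needed an adjusted p under 0.05 with a log2 difference beyond 0.3 either way, 159 (2.54%) had an unadjusted p under 0.05, and DESeq2 called 0, with 65 at an unadjusted p under 0.05. With the library date as a term in the fit, 0 were called and 282 had an unadjusted p under 0.05, and without WT mouse 1 there was 1 call and 272 had one. When 200 genes of simulated counts of this size were given a log2 difference of 1, edgeR found 21.0% of them along with 5 false calls, so most differences of that size would have been missed. For Cck, Adarb2 and Cxcl14 the groups overlapped. Cck had 747, 2609 and 1479.5 CPM in WT and 790.4, 1878 and 1384 CPM in GKO (log2 difference -0.22 ± 0.41 (SE), unadjusted p = 0.596), with the lowest value of each group in mouse 1. Adarb2 had 12720.3, 12164 and 11243 CPM in WT and 16292, 13575 and 10522 CPM in GKO (log2 difference 0.21 ± 0.31 (SE), unadjusted p = 0.512). Cxcl14 had 386, 369 and 576 CPM in WT and 116, 332 and 529 CPM in GKO (log2 difference -0.42 ± 0.39 (SE), unadjusted p = 0.303). Cnr1, which chose the nuclei, had 1285, 1868 and 1864 CPM and 1320.3, 1579 and 1214 CPM and was not tested.

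The 5 genes with the smallest unadjusted p were Gm45341, Vwc2, Kctd12, Ubap2 and Trhde, all with an adjusted p of 1.00. Kctd12 had 35.7, 78.0 and 127 CPM in WT and 14.5, 32.6 and 16.3 CPM in GKO (log2 difference -1.80 ± 0.46 (SE), unadjusted p = 0.00098). The groups did not overlap, from 5 to 29 UMIs per mouse, and Kctd12 passed the threshold without WT mouse 1 (log2 difference -2.21, adjusted p = 0.0494). Vwc2, a secreted antagonist of bone morphogenetic proteins, had 62.5, 56.7 and 39.3 CPM in WT and 174, 117 and 95.9 CPM in GKO (log2 difference 1.26 ± 0.32 (SE), unadjusted p = 0.000686). The unnamed gene model Gm45341 had 105, 149 and 109 CPM in WT and 269, 226 and 253 CPM in GKO (log2 difference 1.08 ± 0.26 (SE), unadjusted p = 0.000503). Ubap2, a ubiquitin-binding protein, had 212, 95.7 and 100.4 CPM in WT and 72.4, 67.9 and 57.1 CPM in GKO (log2 difference -1.08 ± 0.32 (SE), unadjusted p = 0.00326). In these 3 the groups were separate, as for Kctd12. All were picked by their p in the same mice, so this separation follows in part from the choice. The share of all 6248 genes with separate groups is not given, so separation alone carries no weight here or for genes below. Trhde, the enzyme that degrades thyrotropin-releasing hormone, had 60.2, 42.5 and 65.5 CPM and 60.8, 114 and 182 CPM (log2 difference 1.12 ± 0.34 (SE), unadjusted p = 0.00358), overlapped, and turned to -0.10 when the rule took nuclei with at least 6 UMIs of Cnr1.

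By list, 4 of the 13 CCK and CGE genes tested had an unadjusted p under 0.05 and 0 passed the threshold, with a median log2 difference of -0.24 beside 0.0098 over all genes. Over all genes, 2.54% had an unadjusted p under 0.05 and 0% were called, which are the shares to set beside each list here. Besides Kctd12 they were Calb1, Reln and Htr3a, named here for that p in the same mice. Calb1 had 80.3, 81.5 and 61.1 CPM in WT and 34.7, 32.6 and 55.1 CPM in GKO, without overlap (log2 difference -0.83 ± 0.32 (SE), unadjusted p = 0.0169). Reln had 1238, 468 and 397 CPM and 376, 397 and 420.5 CPM (log2 difference -0.81 ± 0.38 (SE), unadjusted p = 0.0455), and without WT mouse 1 the difference was -0.079 (unadjusted p = 0.798). The nuclei of that mouse also had the highest sum of Cajal-Retzius and choroid plexus genes (208 CPM, against 0 to 177 in the other 7 mice). The next highest sum, 177 CPM, was in GKO mouse 1, which had 376 CPM of Reln. The part of these genes in the Reln level was not tested. Of the 9 study genes tested, 0 were called and 0 had an unadjusted p under 0.05, with a median of 0.13. App, which encodes the amyloid precursor protein, had 919, 634 and 982 CPM in WT and 669, 845 and 831 CPM in GKO (log2 difference -0.08 ± 0.29 (SE), unadjusted p = 0.781). None of 12 endocannabinoid genes and 12 GABA receptor genes was called, with 0 and 1 at an unadjusted p under 0.05, nor any of 16 glutamate receptor genes, with 1.

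Whether a genotype difference was different in the Cnr1-high nuclei from that in the other inhibitory nuclei was tested as an interaction. Of 10763 genes, 0 were called (0%), 362 (3.36%) had an unadjusted p under 0.05, and DESeq2 called 0 with 108 at an unadjusted p under 0.05. Simulated interactions of 1 on the log2 scale were found in 13.0% of cases, along with 2 false calls. Vwc2 was among the 5 smallest p-values (log2 difference of differences 1.40 ± 0.36, unadjusted p = 0.00153, adjusted p = 1.00 by edgeR). The others were Gm38825, Ankrd6, Rab31 and Ddo. For Gsap the interaction was 0.60 ± 0.52 (SE).

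**Figure D5:**
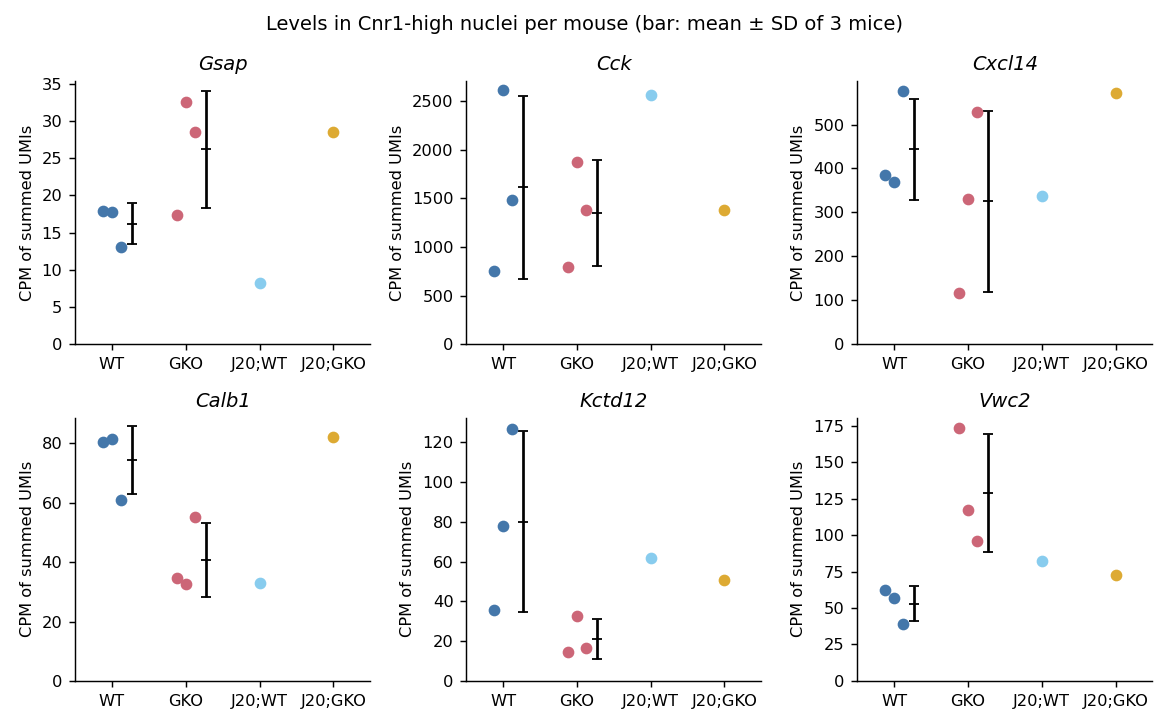
Level (CPM, vertical axis) in the Cnr1-high nuclei of each mouse, by genotype, with mean ± SD of 3 mice for WT and for GKO and single mice for J20;WT and J20;GKO. Gsap is not lower in the GKO mice (17.4 to 32.6 CPM against 13.1 to 17.9). Kctd12, picked for its small p in the same mice, is separate between WT and GKO but did not pass the threshold over all 6 mice.

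The J20 pair is 1 mouse each, so its values stand without a test, and their exact Poisson 95% intervals cover counting error only. The pair also differs in sex, in the date its libraries carry and in mitochondrial share (0.702% in J20;WT and 0.283% in J20;GKO), which cannot be told apart from genotype. For 2148 genes that reached 50 UMIs over both mice, the log2 ratio (J20;GKO over J20;WT) had a median of -0.0076 and ran from -0.82 to 0.75 between its 5th and 95th percentiles. The highest ratios were those of Xist (264 against 0 UMIs), Ptgds, a prostaglandin synthase (73 against 3 UMIs), and Htr2c. Htr2c had 693 CPM (604 to 791) in J20;GKO and 107 CPM (70.1 to 157) in J20;WT, the highest and the lowest of the 8 mice. The lowest were Eif2s3y (0 against 73 UMIs), Kcnip4 and the mitochondrial gene mt-Nd3. Kcnip4 had 664 CPM (578 to 761) in J20;GKO and 2435 CPM (2243 to 2640.1) in J20;WT. Of the class genes, Cck had 1376 CPM (1249.9 to 1512) in J20;GKO and 2559 CPM (2362 to 2769) in J20;WT, and Adarb2 14736 CPM (14316 to 15166) in J20;GKO and 14121 CPM (13652 to 14602) in J20;WT. Reln had 535 CPM (457 to 622) in J20;GKO and 119.7 CPM (80.2 to 172) in J20;WT, and the WT and GKO mice lay between 376 and 1238 CPM. Cxcl14 had 573 CPM (492 to 662) in J20;GKO and 338 CPM (269 to 420.1) in J20;WT. The intervals of Cck, Reln and Cxcl14 did not overlap within the pair, but the J20;GKO values of all 3, and the J20;WT values of Cck and Cxcl14, lay within the range of the other 6 mice.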

How the data were processed

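Hippocampal nuclei of 8 mice were sequenced on the 10x Genomics platform, 1 library per mouse, in 4 groups (3 WT, 3 GKO, 1 J20;WT and 1 J20;GKO). The deposited counts are UMIs per gene and nucleus in 30211 features, made by the authors with Cell Ranger 3.0.2 on the mm10 build. The submitters' processing notes also name Seurat 3.0 and R 3.6.2, whose normalized values were not used here. Whether intronic reads were counted is not given in the sources used here. Nuclei were filtered on the study's limits (mitochondrial share at most 5%, 200 to 7500 genes), and inhibitory nuclei and classes were set by UMI counts. Vip and Lamp5 interneurons had at least 2 UMIs and Sst interneurons at least 3 UMIs of their gene, and at most 1 (Sst 2) of the other markers; Cnr1 was not used for them. The members and the gene lists were chosen with earlier results of these data known.

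UMIs were summed per mouse and class (member sums 229129 to 489944 UMIs) and tested in R 4.3.3 with edgeR 4.0.16 (quasi-likelihood, TMM scaling, filterByExpr, Benjamini-Hochberg adjustment over all genes tested), with the mouse as a block between classes. The genes of the rule stayed in the library sizes and were not tested. Fold changes are fitted values. Alternatives were DESeq2 1.42.0, other scalings, filters, Cnr1 limits and depths, leaving out mice, and leaving out doublets called by Scrublet (in scanpy 1.11.5). A gene was named when it was on a list, or among the 10 highest or lowest fold changes of a class contrast with the same direction in every mouse and at least 20 CPM, or among the 5 smallest p-values of a genotype contrast, or the 3 highest and lowest ratios of the J20 pair. Tests were also run on simulated counts, with means and dispersions taken from the real sums. In the contrast with the other inhibitory nuclei, 96.5% of 200 genes given a log2 change of 2 were found, with 0 false calls. The simulated genotype contrast and interaction gave 5 and 2 false calls. Permutation tests used scipy 1.17.1. Intervals cover counting error only. The values of some listed genes are not reported here.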

Additional observations from a re-analysis of the deposited data

How the results depend on the processing

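The difference in the share of Cnr1-high nuclei, 0.126 percentage points higher in GKO, had no fixed sign: it was -0.804 with 500 CPM of Cnr1 in place of 8 UMIs, -0.520 after thinning to 5000 UMIs, and -1.26 to 1.60 when single mice were left out, with every p at 0.4 or above. Between GKO and WT, testing every gene without a filter on low counts gave 7 calls (2 higher, 5 lower, Kctd12 among them) and leaving out single mice gave 0 to 1 (Kctd12 without WT mouse 1). The replicate block gave 1 call (Gm28928, log2 difference 1.88). Same-numbered WT and GKO mice correlated in their deviations by 0.32, 0.01 and 0.20 over 6252 genes, so the numbers were not taken to pair them. Trhde reversed to -0.10 with at least 6 UMIs of Cnr1. Leaving out single mice, Kctd12 ran from -2.25 to -1.34, Vwc2 from 0.95 to 1.49, Gm45341 from 0.98 to 1.26, Ubap2 from -1.28 to -0.54 and Trhde from 0.71 to 1.40. The interaction gave 3 calls without the filter (Dkk2, Hs6st3 and Vwc2) and 0 to 0 without single mice. Calls against all other inhibitory nuclei, Vip, Lamp5 and Sst interneurons numbered 1059, 477, 862 and 976 without the filter, which tests more genes, and 327, 117, 221 and 255 in nuclei thinned to 5000 UMIs, where fewer genes could be tested. Of the main calls of these contrasts, in the same order, thinning kept 50.8%, 44.4%, 49.6% and 49.1%. Taking only nuclei of at least 10000 UMIs kept 85.5%, 63.6%, 91.1% and 86.7%. Per nucleus in place of CPM, the median log2 ratio of the J20 pair was 0.546. Thinning moved the shares of nuclei with Cck, Cxcl14, Slc17a8 and Reln to 75.5%, 55.5%, 11.0% and 49.7%. Over 122 pairs of a gene and a class contrast there were 1313 values under these alternatives. Of these, 1271 kept their direction and side of the threshold, 34 lost the call, 8 gained it and 0 reversed. A gene counted once in each contrast that named it, and settings in which it could not be tested were left out. These genes were picked for the text and do not stand for all calls. Of the causes of these changes, those not named here were not tested. Unadjusted p under 0.05 between GKO and WT was reached by 159 genes, by 282 with the library date as a term, by 265 with the replicate block and by 140 to 272 without single mice.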
